A study of Mus musculus with 2 samples.

Results

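The genes of the proteasome, the protease that degrades ubiquitin-tagged proteins in the cytosol and nucleus, were read in RNA-seq libraries of mouse bone marrow-derived macrophages, cells cultured from marrow in the growth factor M-CSF. Members were taken by symbol: names that begin with Psma, Psmb, Psmc, Psmd or Psme followed by a number, without pseudogene names. The rule found 46 of the table's 40017 symbols. The KO library came from SPP1fl/fl-Lyz2-icre mice, which carry floxed alleles of Spp1, the osteopontin gene, and a Cre recombinase driven from Lyz2, a gene active in myeloid cells. The WT library came from SPP1fl/fl mice, which carry the same floxed alleles without the Cre. Both cultures were kept for 5 days in 20 ng/ml M-CSF. The age and sex of the mice, and how many of them fed a library, are not stated in the labels. The study asked what SPP1 does in macrophages.

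The proteasome is built around the 20S core, a barrel in which rings of alpha subunits, the gate, enclose rings of beta subunits, some of which hold the catalytic sites. The 19S regulatory particle binds ubiquitin chains, removes them and feeds the unfolded protein into the core with a ring of ATPases. Interferon, above all interferon gamma, induces Psmb8, Psmb9 and Psmb10, which take the places of the catalytic subunits encoded by Psmb5, Psmb6 and Psmb7 in newly made cores to form the immunoproteasome. It also induces Psme1 and Psme2, the subunits of the PA28 activator cap. The immunoproteasome is known for cutting peptides that fit MHC class I, which macrophages display to CD8 T cells.

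Each genotype had 1 library, so every value below is a difference between 2 libraries, with no spread between cultures and no test. Levels are the authors' deposited FPKM, which scale fragments by gene length and by the mapped fragments of a library. Differences are in log2(FPKM + 1), KO minus WT, and folds are ratios of FPKM. A symbol was called higher or lower in KO where FPKM + 1 was at least 25% above that of the other library, a log2 difference of 0.32 in size, among symbols with a mean of at least 1 FPKM. Of all 10536 such symbols, 7.55% were called higher and 4.3% lower, and the median difference was -0.01. Spp1 stood at 11.3 FPKM in KO, 0.283% of its 4006 FPKM in WT. All 8 macrophage markers passed the filter, 4 above 0 and 4 below, with 1 called higher (Fcgr1, 190 FPKM in KO against 99.2 FPKM in WT) and 1 lower (Lyz2), while all 4 T and NK cell markers were listed at 0 in both. Lyz2 stood at 13539 FPKM in KO against 29499 FPKM in WT. Since only the KO mice carry the Cre driven from Lyz2, a change of cell type cannot be told apart here from an effect of the Cre allele on this gene. Only 2 of 4 stromal markers passed the filter and both were lower in KO, with a summed level over the 4 of 3.67 FPKM in KO against 8.29 FPKM in WT. Of 5 monocyte markers 4 passed, 2 called higher and 1 lower. The 2 called higher were near the filter. Plac8 had 1.84 FPKM in KO against 0.588 FPKM in WT (0.84), and Ly6c2 2.19 FPKM in KO against 1.27 FPKM in WT (0.49). F13a1 was called lower, with 6.36 FPKM in KO against 17.8 FPKM in WT. The sum over the 5 was 35.0 FPKM in KO against 40.3 FPKM in WT. Of 5 dendritic cell markers 1 passed, Itgax, with 135 FPKM in KO against 125 FPKM in WT (0.11). None of the B cell, neutrophil and mast cell markers passed, with sums below 1 FPKM in either library. The part of other cell types in the results was not tested, and in bulk RNA fewer cells of a type cannot be told apart from less RNA per cell.

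Of the 46 members, 40 passed the filter, and 6 of these, 15.0%, were called higher in KO, beside the 7.55% of all symbols. They were Psmb10, Psme2, Psme1, Psma5, Psmb5 and Psme2b. None of the 40 was called lower, beside the 4.3% of all symbols. At 1.5-fold, 2 members were higher, Psmb10 and Psme2, a share of 5.00% beside 3.24% of all symbols, and none was lower, beside 1.15%. At 2-fold there was none in either direction, beside 1.23% of all symbols higher and 0.475% lower. In direction alone, 34 of the 40 stood above 0 and 6 below, where 47.4% of all symbols stood above 0. These are counts over genes of shared complexes, which are not independent of each other. Psmb3 and Psme4, both with a difference of 0.31, lay just short of the 25% rule.

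**Figure D1:**
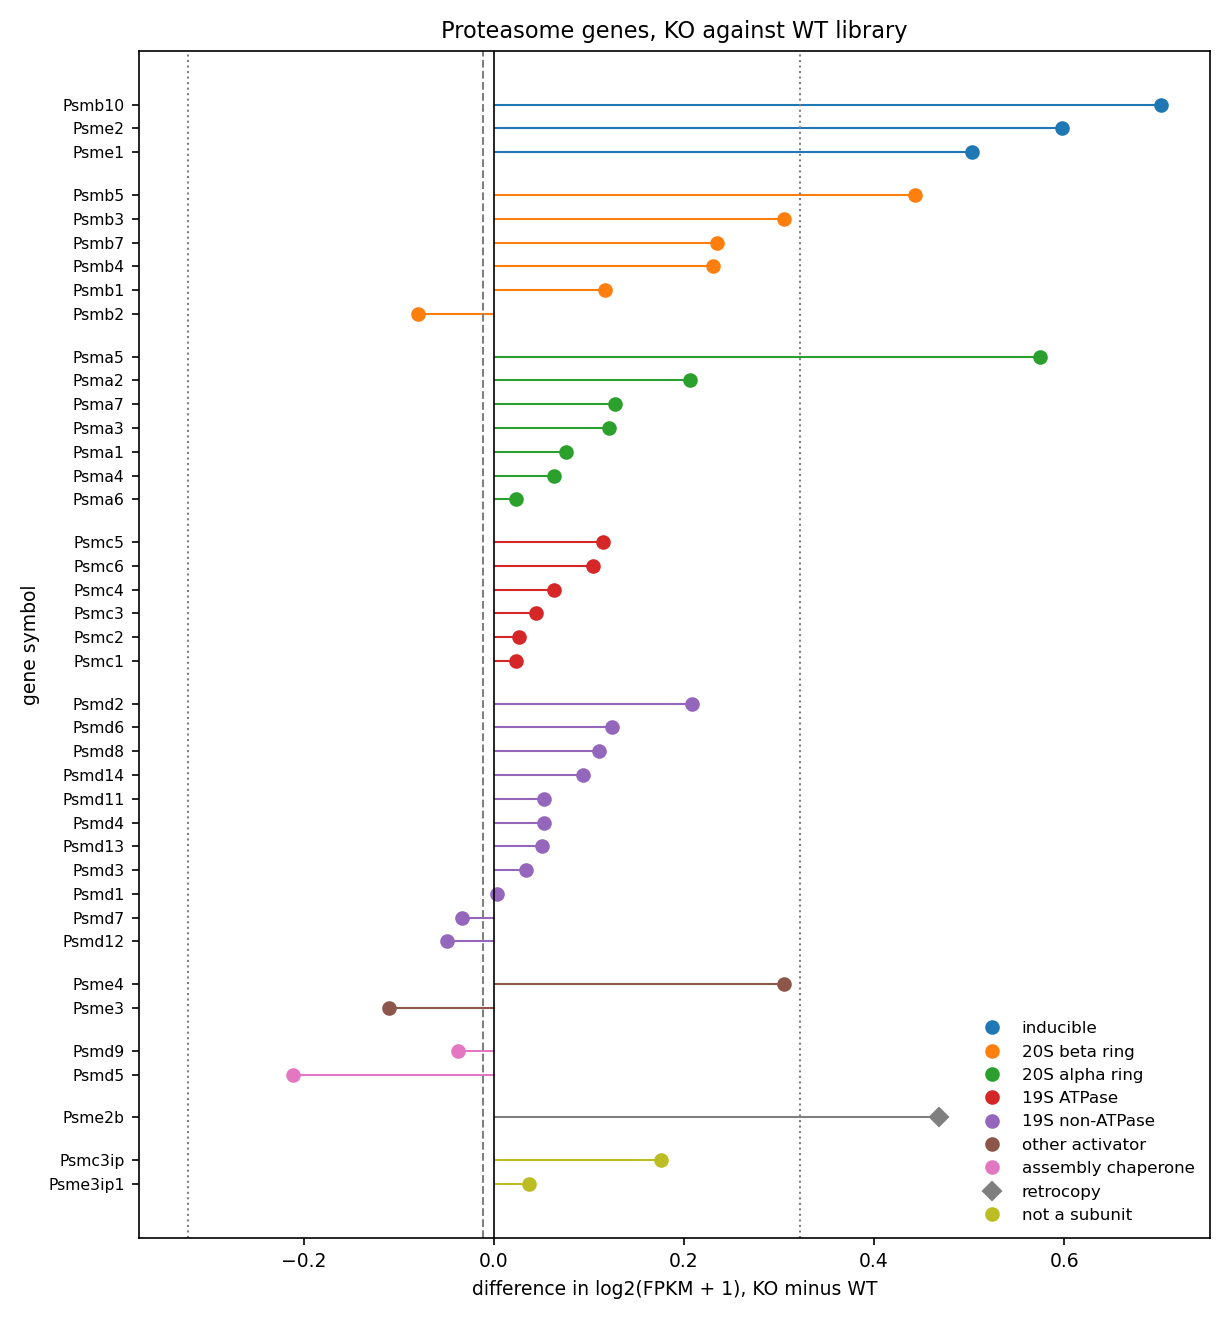
Difference in log2(FPKM + 1), KO minus WT, for the 40 members past the filter, grouped by role, with 1 library per genotype. Dotted lines mark the 25% rule (0.32 in either direction), the dashed line marks the median of all symbols (-0.01), and a diamond marks a symbol with several rows; the 3 inducible genes lie at 0.50 to 0.70, while the 17 genes of the 19S particle lie at -0.05 to 0.21.

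The sequences around the start sites of the 3 inducible genes that passed the filter are shown because the comparison of inducible with constitutive subunits rests on these genes. They are RefSeq windows of 300 bases on GRCm38.p6, 250 before and 50 after the annotated start, written 5′ to 3′ on the gene's strand. The gene coordinates given below come from another annotation, GENCODE, whose starts differ from these. The Psme1 window lies wholly within the GENCODE gene. Capitals mark any match, on either strand, to the core of the interferon-stimulated response element (ISRE), GAAANNGAAA, or of the gamma-activated site (GAS), TTCNNNGAA.
Psmb10 (chr8:105938343-105938642, minus strand): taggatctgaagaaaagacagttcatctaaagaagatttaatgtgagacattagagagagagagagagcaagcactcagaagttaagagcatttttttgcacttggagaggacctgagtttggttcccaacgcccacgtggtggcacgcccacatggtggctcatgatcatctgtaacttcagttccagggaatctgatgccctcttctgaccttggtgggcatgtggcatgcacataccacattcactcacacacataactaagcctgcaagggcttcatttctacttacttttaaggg
Psme1 (chr14:55578244-55578543, plus strand): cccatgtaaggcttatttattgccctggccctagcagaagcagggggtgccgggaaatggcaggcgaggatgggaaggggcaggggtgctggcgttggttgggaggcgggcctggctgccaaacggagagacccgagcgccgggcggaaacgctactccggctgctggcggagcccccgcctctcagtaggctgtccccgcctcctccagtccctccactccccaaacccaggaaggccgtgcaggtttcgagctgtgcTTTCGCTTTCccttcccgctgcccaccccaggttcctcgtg
Psme2 (chr14:55591052-55591351, minus strand, the upstream one of its 2 windows): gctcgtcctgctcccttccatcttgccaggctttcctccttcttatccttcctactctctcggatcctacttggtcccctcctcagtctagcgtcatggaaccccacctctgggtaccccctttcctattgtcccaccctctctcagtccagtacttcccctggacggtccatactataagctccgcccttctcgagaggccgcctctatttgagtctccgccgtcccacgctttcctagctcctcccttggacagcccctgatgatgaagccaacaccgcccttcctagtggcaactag

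The Psme1 window held an ISRE core match at base 260, on the strand opposite to the gene, and neither the Psmb10 window nor either Psme2 window held a match to these motifs. Psmb8, which codes for the inducible subunit LMP7, had a GAS match, TTCCCAGAA, at base 154 of its window. Of 43 windows for the 39 members found in the RefSeq table, 4 held the ISRE core (Psme1, Psmb3, Psmd4 and Psmd9), where 3.44% of all 32851 windows did. The GAS letters stood in 2 member windows, Psmb8 and Psmd2, and in 8.30% of all windows. A match is a description of letters, and a window without one says nothing about a factor. The members called higher did not share these letters, as Psme1 was the one of the 6 with an ISRE core, and none of the 6 had the GAS letters. Other letters, not tied to interferon, were scanned too. TGANNNNGC stood in 25 of the 43 member windows beside 41.3% of all windows, and GGGCGG in 24 beside 35.7%. CCAAT stood in 16 beside 37.4%. Whether any of these goes with the differences was not tested.

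Psmb10, the gene for the inducible catalytic subunit MECL-1, had the largest difference of any member. It stood at 90.4 FPKM in KO against 55.2 FPKM in WT, 1.64-fold, a difference of 0.70 that 2.51% of all symbols past the filter exceeded. Its constitutive counterpart Psmb7 stood at 80.5 FPKM in KO against 68.2 FPKM in WT, 1.18-fold and a difference of 0.23. Per unit of length, Psmb10 RNA thus exceeded Psmb7 RNA in KO, with a ratio of 1.12, and was below it in WT, with a ratio of 0.809. This within-library ratio, which does not depend on the scaling between libraries, was 1.39-fold higher in KO. Psmb10 (chromosome 8, 105935735 to 105938444, minus strand, GRCm38, ENSMUSG00000031897.9) has no annotated exon overlap with another gene, whereas 405 bases of Psmb7 exon overlap Nek6 on the other strand. The symbols on both sides of Psmb10 had lower levels than it: Pskh1 stood at 14.04 FPKM in KO against 14.8 FPKM in WT, and Slc12a4 at 26.3 and 23.3 FPKM in KO and WT, while Ctrl and Lcat were below 1 FPKM in both.

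Psme1 and Psme2, which code for PA28 alpha and PA28 beta, were both called higher in KO. Psme1 was the most abundant of the inducible genes, at 163 FPKM in KO against 114 FPKM in WT, 1.42-fold and a difference of 0.50. Psme2 stood at 97.0 FPKM in KO against 63.8 FPKM in WT, 1.52-fold and a difference of 0.60. PA28 alpha and beta assemble into 1 ring, and the ratio of their RNAs was close in the 2 libraries, with 0.597 Psme2 per Psme1 in KO and 0.557 in WT. Psme3, which codes for the related nuclear activator PA28 gamma, went the other way, with 30.2 FPKM in KO against 32.7 FPKM in WT and a difference of -0.11. The Psme1 to Psme3 ratio was therefore 5.38 in KO and 3.50 in WT. Psme4, the gene for the large activator PA200, stood at 18.97 FPKM in KO against 15.2 FPKM in WT, 1.251-fold as FPKM but 0.31 on the log2(FPKM + 1) scale.

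Psme1 and Psme2 lie 5912 bases apart on chromosome 14 (Psme1 at 55578123 to 55581529 on the plus strand, ENSMUSG00000022216.17; Psme2 at 55587441 to 55591113 on the minus strand, ENSMUSG00000079197.10). The 4 expressed symbols among their nearest neighbours also stood higher in KO. Dcaf11 had 34.9 FPKM in KO against 27.1 FPKM in WT, a difference of 0.35, and Emc9, between the pair, 11.3 FPKM in KO against 8.804 FPKM in WT, a difference of 0.33. Rnf31, a subunit of the linear ubiquitin ligase, had 22.9 FPKM in KO against 18.7 FPKM in WT, a difference of 0.28, and Irf9, an interferon signalling factor, 47.9 FPKM in KO against 41.2 FPKM in WT, a difference of 0.21. Dcaf11 and Emc9 are past the 25% rule, and all 4 differences are smaller than those of Psme1 and Psme2. Emc9 exons overlap those of Psme1 by 14 bases on the other strand. Fitm1, the symbol just before Psme1, was listed at 0 in both libraries.

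The other inducible subunits, LMP7 (Psmb8) and LMP2 (Psmb9), were too low to compare. These values may not be the genes' levels, since a core subunit gene with several rows, Psmb6, described next, is also near 0. Both symbols stand in 4 rows, and no row reached 1 FPKM in either library. The highest Psmb8 row had 0.941 FPKM in KO against 0.288 FPKM in WT, and a second row went the other way, with 0.118 FPKM in KO against 0.144 FPKM in WT. The remaining Psmb8 rows were listed at 0 in both libraries. The highest Psmb9 row had 0.308 FPKM in KO against 0.141 FPKM in WT, 2 further rows had only WT values, of 0.0273 and 0.0546 FPKM, and the last was listed at 0 in both. At low levels most FPKM pairs moved in whole-read steps, and where reads were counted whole, a pair of values gives the smallest pair of whole numbers it could stand for. These were 5 in KO and 2 in WT for the highest Psmb8 row, 5 in KO and 8 in WT for its second row, and 5 in KO and 3 in WT for the highest Psmb9 row. Each pair was reduced on its own, so the numbers of different rows cannot be set against each other, and a row may stand for many more reads. The true read numbers are not known, and a fractional sharing of reads between rows was not tested.

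Of the 5 members with several rows, 4 were below the filter, and they belong to different roles. Psmb6, the constitutive counterpart of Psmb9 and an essential core subunit, had 2 rows, with 0.833 FPKM in KO against 0.658 FPKM in WT in the higher and 0.0300 FPKM in KO against 0.0229 FPKM in WT in the lower. Every other constitutive core subunit gene stood at 30.7 FPKM or more in KO and 28.1 FPKM or more in WT. Psmd10, the gene of the assembly chaperone gankyrin, had 2 rows, one with 0.244 FPKM in KO against 0.140 FPKM in WT and one at 0 in both. Over the whole table, 4.41% of symbols have several rows. Beside Psmb8 and Psmb9 on chromosome 17, the peptide transporter genes Tap1 and Tap2, which also have 4 rows each, stood at 0.247 FPKM in KO against 0.0832 FPKM in WT and at 0.324 FPKM in KO against 0.141 FPKM in WT. Psmb9 and Tap1 exons overlap by 212 bases on opposite strands. A ratio of Psmb8 to Psmb5 or of Psmb9 to Psmb6 is therefore not read here. The RNA of an inducible catalytic subunit can be set against its counterpart for Psmb10 and Psmb7 alone. Exchange of subunits in the core was not measured for any of them.

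**Figure D2:**
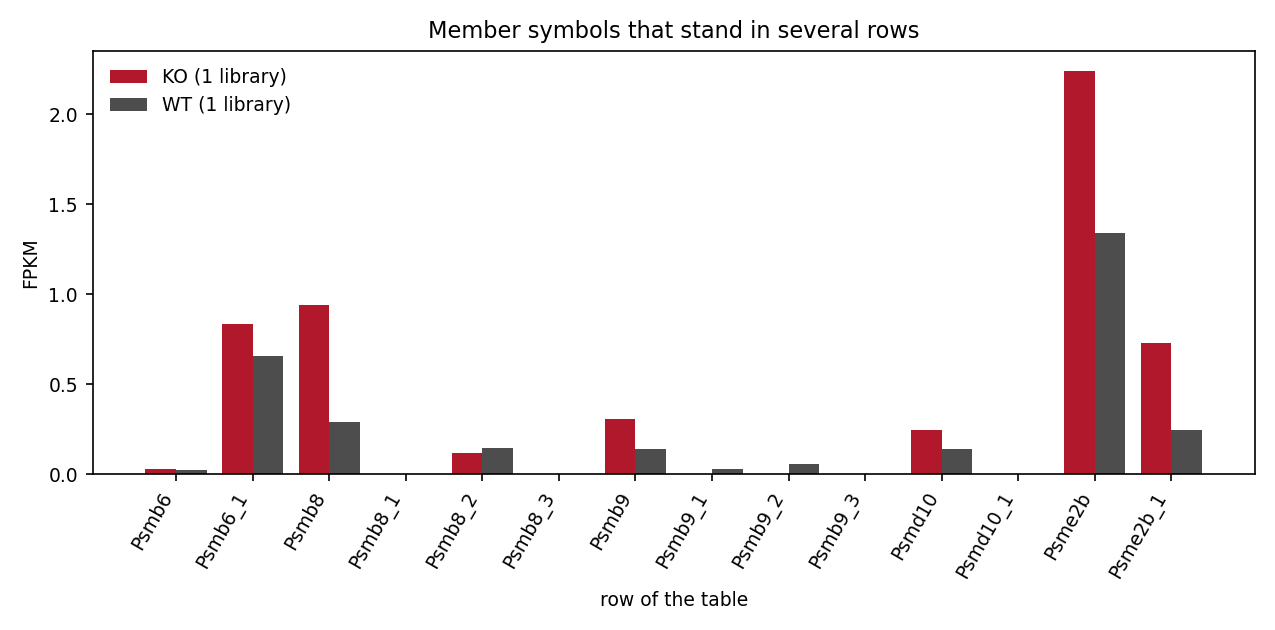
FPKM of every row of the 5 member symbols that stand in several rows, KO bar left of WT bar, 1 library each. No row of Psmb6, Psmb8, Psmb9 or Psmd10 reaches 1 FPKM, and the highest bar is Psme2b in KO at 2.24 FPKM.

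Psme2b, a gene related in sequence to Psme2, was the fifth symbol with several rows and the one of them past the filter. Its higher row had 2.24 FPKM in KO against 1.34 FPKM in WT, a difference of 0.47, and its other row 0.729 FPKM in KO against 0.248 FPKM in WT, also 0.47. Psme2 RNA was 43.3 times as abundant in KO and 47.5 times as abundant in WT, and whether reads of the copies were shared out between them was not tested. Psme2b exons also overlap by 41 bases, on the same strand, with 9930111J21Rik1, which stood at 6.32 FPKM in KO against 3.29 FPKM in WT.

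The constitutive 20S core showed mostly small differences, nearly all above 0. Of its 14 genes 13 passed the filter, 12 above 0 and 1 below, where 47.4% of all symbols stood above 0. Their median difference was 0.13 beside -0.01 for all symbols. Of the 13, 2 were called higher, Psma5 and Psmb5, beside 7.55% of all symbols. In the beta ring, the chymotrypsin-like catalytic subunit gene Psmb5 had the largest difference, with 45.3 FPKM in KO against 33.0 FPKM in WT, 1.37-fold and 0.44. The structural subunit gene Psmb3 (64.1 FPKM in KO, 51.7 FPKM in WT) followed with 0.31, and then Psmb7, given above, and the structural subunit gene Psmb4 (104 FPKM in KO, 88.7 FPKM in WT), both with 0.23. Psmb1 was the most abundant core gene, at 114 FPKM in KO against 105 FPKM in WT, a difference of 0.12. Psmb2 was the one core gene below 0, with 73.0 FPKM in KO against 77.2 FPKM in WT, a difference of -0.08. The beta ring thus covered a range of differences wider than that of either 19S group.

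In the alpha ring, 1 gene stood apart from its 6 partners. Psma5 had 47.7 FPKM in KO against 31.7 FPKM in WT, 1.505-fold and a difference of 0.57, close to that of Psme2. Psma2 came next, with 76.2 FPKM in KO against 65.9 FPKM in WT and a difference of 0.21. The remaining alpha genes, Psma7, Psma3, Psma1, Psma4 and Psma6, lay between 0.13 and 0.02, with Psma6 at 64.9 FPKM in KO against 63.8 FPKM in WT. All 7 alpha proteins are present in every core in equal number, and their RNA levels ranged from 30.7 FPKM (Psma3) to 76.2 FPKM (Psma2) in KO and from 28.1 FPKM (Psma3) to 65.9 FPKM (Psma2) in WT. Psmb5 is among the shortest of the members, with 899 bases of annotated exon, and Psma5 has 1321 bases. Whether the counting used strand is not stated, and 60 bases of Psma5 exon overlap a gene on the other strand, 1700010K24Rik. Across 10201 symbols with a known length the difference ran against exon length with Spearman rho = -0.16, and across 39 members with rho = -0.29, a description over genes that share the same 2 libraries. With the length trend removed, Psmb5 stood at 0.34 and Psma5 at 0.54, both still past the 25% rule.

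**Figure D3:**
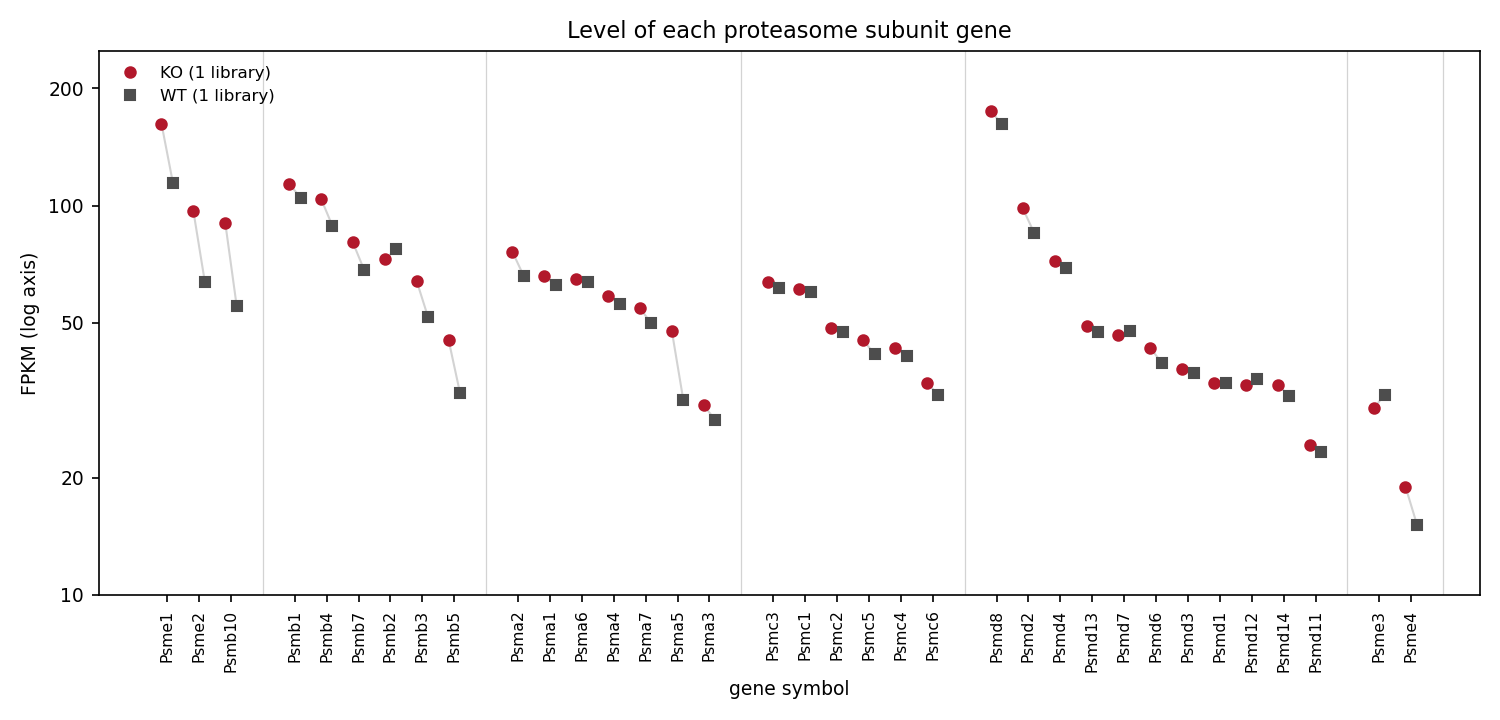
FPKM on a log axis of the subunit and activator genes past the filter, in order of level within each role (inducible, beta ring, alpha ring, 19S ATPases, 19S non-ATPases, other activators), KO circle left of WT square, 1 library each. The inducible genes and Psma5 and Psmb5 show the widest gaps between the symbols, while the 19S symbols nearly coincide.

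The 19S regulatory particle was close to level between the libraries. None of its 17 genes was called in either direction, beside 7.55% of all symbols called higher and 4.3% lower. In direction, 15 stood above 0 and 2 below, where 47.4% of all symbols stood above 0. All 6 ATPase genes stood between 0.02 and 0.11, with a median of 0.05. Psmc3 was the most abundant of them, at 63.6 FPKM in KO against 61.6 FPKM in WT, and Psmc5 had the largest difference, with 45.1 FPKM in KO against 41.5 FPKM in WT. The 11 non-ATPase genes had a median of 0.05 and lay between -0.05 and 0.21. Psmd2, a large scaffold subunit, was at the upper end with 98.5 FPKM in KO against 85.1 FPKM in WT. Psmd4, a ubiquitin receptor, stood at 71.9 FPKM in KO against 69.3 FPKM in WT, and Psmd14, the deubiquitinase of the lid, at 34.7 FPKM in KO against 32.4 FPKM in WT. Psmd12 and Psmd7 were the lid genes below 0, with Psmd12 at 34.7 FPKM in KO against 35.9 FPKM in WT.

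The levels of the 19S genes spread more widely than their differences. Psmd8, a lid subunit gene, had the highest level of all members, at 175 FPKM in KO against 162 FPKM in WT, and Psmd11, another lid subunit gene, the lowest of the particle, at 24.3 FPKM in KO against 23.3 FPKM in WT. Summed over the particle, 19S genes had 946 FPKM in KO against 898 FPKM in WT, 1.053-fold. The constitutive 20S genes summed to 880 FPKM in KO against 782 FPKM in WT, 1.13-fold, and the inducible genes to 351 FPKM in KO against 234 FPKM in WT, 1.502-fold. Of all FPKM of a library, the members together made up 0.539% in KO against 0.472% in WT. Spp1 and Lyz2 together made up 3.21% in KO against 7.87% in WT, so the rest of each library, members included, was shared out differently. The members' share without these genes was not computed. Because Psmb6, Psmb8 and Psmb9 are nearly at 0, the sums for their groups leave out what those genes would add.

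The members outside the standard particle were low or near level. The assembly chaperone genes Psmd5 and Psmd9 were both below 0, Psmd5 at 14.3 FPKM in KO against 16.8 FPKM in WT (-0.21, the lowest of all members) and Psmd9 at 8.49 FPKM in KO against 8.74 FPKM in WT (-0.04). Psma8, known for a testis-specific core, stood at 0.969 FPKM in KO against 0.502 FPKM in WT, below the filter. Psmb11, known for the thymus-specific core, was listed at 0 in both libraries. Psmc3ip, a recombination factor named for its binding to Psmc3, and Psme3ip1, named for binding Psme3, are taken in by the symbol rule but code for no subunit. They had differences of 0.18 and 0.04.

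Genes that act before and after the proteasome were read from lists chosen with earlier results of these data known. Their counts stand beside 7.55% of all symbols past the filter called higher and 4.3% called lower. Among 3 proteasome genes with other symbols, Sem1, a small lid subunit, was called higher (110 FPKM in KO, 82.9 FPKM in WT, 0.40), while the ubiquitin receptor gene Adrm1 (39.4 FPKM in KO, 45.1 FPKM in WT) and the inhibitor gene Psmf1 (7.40 FPKM in KO, 8.07 FPKM in WT) stood at -0.19 and -0.11. Of 8 assembly chaperone genes, 7 passed the filter, 2 were called higher and 1 lower. Psmg4 stood at 22.2 FPKM in KO against 13.002 FPKM in WT (0.73), and Pomp, which matures the core and is known to favour immunoproteasome assembly, at 133 FPKM in KO against 104 FPKM in WT (0.35). Psmg1 stood at 0.276 FPKM in KO against 3.62 FPKM in WT (-1.86), but has 2 rows. Its partner Psmg2, in the heterodimer that starts the alpha ring, has 1 row and stood at 8.19 FPKM in KO against 6.91 FPKM in WT (0.22).

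Ubiquitin genes, shuttle factors and regulators were mostly near level. Of 7 ubiquitin and E1 genes, 2 were called higher and none lower, beside 7.55% and 4.3% of all symbols. Uba7, the activating enzyme of the interferon-induced modifier ISG15, stood at 71.1 FPKM in KO against 42.7 FPKM in WT (0.72), and Rps27a, a ubiquitin fusion with a ribosomal protein, at 206 FPKM in KO against 129 FPKM in WT (0.67). The main ubiquitin-activating enzyme gene Uba1 stood at 100.2 FPKM in KO against 99.9 FPKM in WT, and the polyubiquitin gene Ubb at 400 FPKM in KO against 365 FPKM in WT. None of the 10 deubiquitinase and shuttle factor genes was called, 7 stood below 0 and 3 above, and their median was -0.09, with the shuttle factor gene Rad23b the largest at 36.3 FPKM in KO against 40.96 FPKM in WT (-0.17). None of the 4 regulator genes was called either. Nfe2l1, the factor known to raise proteasome genes when the proteasome is impaired, stood at 69.1 FPKM in KO against 69.6 FPKM in WT, and its relative Nfe2l2 at 210 FPKM in KO against 234 FPKM in WT (-0.15).

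Genes downstream of the proteasome trim its peptides and load them onto MHC class I, and interferon factors act upstream of the inducible subunits. None of 7 peptidase genes was called, and their median was 0.04, with the endoplasmic reticulum aminopeptidase gene Erap1 the largest at 26.2 FPKM in KO against 21.2 FPKM in WT (0.30). Of 9 peptide loading genes 7 passed the filter and 4 were called higher, beside 7.55% of all symbols, with a median of 0.42. These were Tapbp (2.82, but with 4 rows), the class I transactivator gene Nlrc5 (16.6 FPKM in KO, 10.7 FPKM in WT, 0.59), Tapbpl (16.5 FPKM in KO, 10.9 FPKM in WT, 0.55) and the light chain gene B2m (3456 FPKM in KO, 2578 FPKM in WT, 0.42). The peptide loading count and median include Tapbp, although a symbol with several rows may not show a gene's level. Of 5 interferon factors 2 were called higher, beside the same 7.55% of all symbols, with a median of 0.28. Stat2 stood at 113 FPKM in KO against 53.4 FPKM in WT (1.06). Irf1, which is known to act on the Psmb9 and Tap1 promoters, stood at 41.7 FPKM in KO against 33.2 FPKM in WT (0.32), at the edge of the rule. The differences of Psmb10, Psme2 and Psme1 were thus smaller than that of Stat2 and near those of Nlrc5 and Tapbpl.

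**Figure D4:**
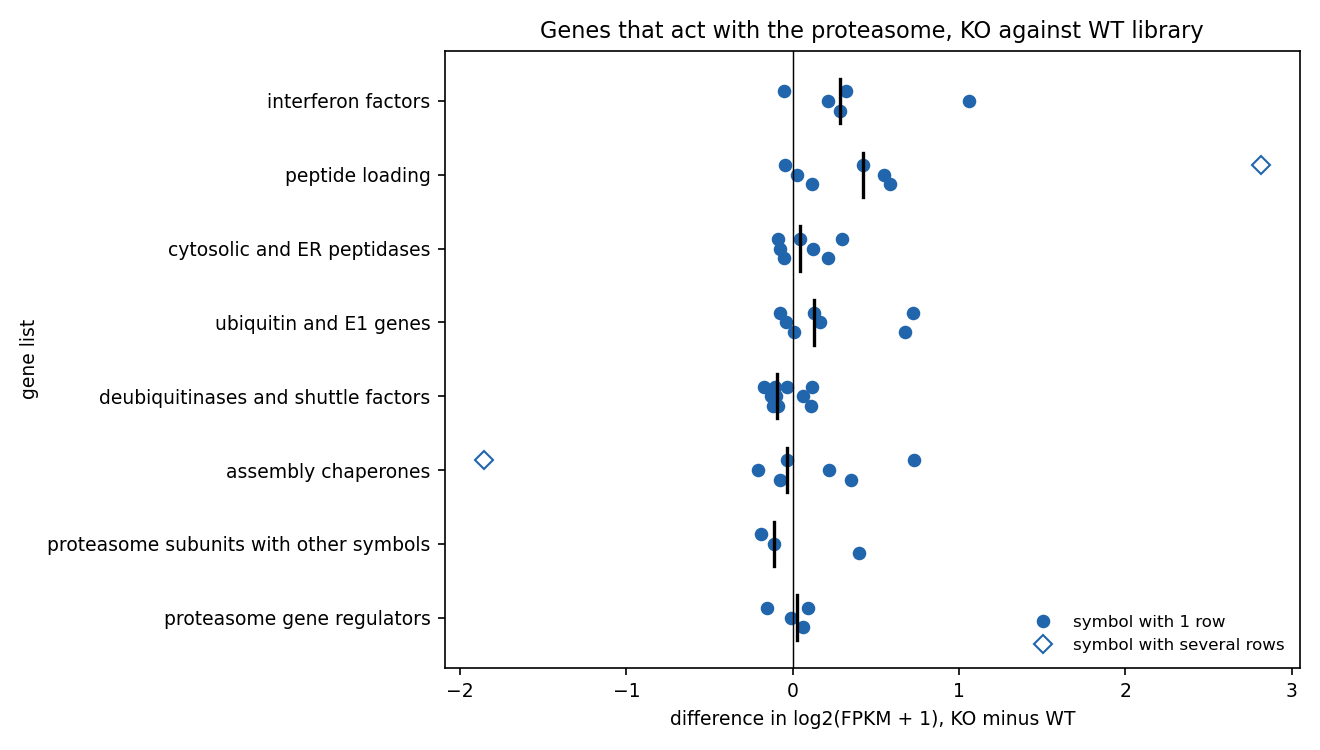
Difference in log2(FPKM + 1), KO minus WT, for genes of 8 lists that act with the proteasome, 1 point per gene with a mean of at least 1 FPKM and a bar at the list's median, 1 library per genotype. The points of the deubiquitinase and regulator lists lie close to 0, Stat2, Uba7 and Psmg4 lie to the right, and the points farthest out on either side, Tapbp and Psmg1, are symbols with several rows.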

How the data were processed

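RNA was profiled in 2 libraries, KO and WT, assigned from the sample titles. The values are FPKM that the authors deposited in 1 table for the series. RSEM, DESeq2 and the build mm10 appear in the submitters' processing notes, without role or version; no source used here gives the aligner, annotation or filters. A further 2 value columns match no sample and were not used. For a symbol with several rows the row with the highest mean was kept. FPKM is relative within a library, whose sums were 422004 in KO and 425814 in WT.

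Differences and counts were computed with Python 3.11.15 and pandas 2.3.3, with a pseudocount of 1 FPKM, and tested on simulated data. Absolute depth is not given. In 3152 rows with both values together under 0.3 FPKM, taking WT as 1.308 times as deep as KO made 78.7% of pairs whole-number ratios up to 10 within 0.0001, against 10.2% for a factor wrong by 5%. The factor 1.308 was the most common KO to WT ratio in these same rows, so this contrast is not an independent check of it. The whole-number pairs of members were sought up to 100 within 1e-05. Coordinates and lengths are from GENCODE M21 (GRCm38), found for 45 of 46 members. The members, lists and tests were chosen with earlier results of these data known. All members may be named; other genes are Spp1, Lyz2, neighbours of the inducible genes, cell type markers, and the genes of lists of up to 5 or the 4 largest differences of longer ones, and any further gene was chosen after its values were seen. A listed gene is not reported here and is left out of its list's count.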

Additional observations from a re-analysis of the deposited data

How the results depend on the processing

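The 10 results were recomputed with pseudocounts of 0.1 and 5 FPKM, no filter or a mean of at least 5 FPKM, libraries scaled to an equal sum, centring on the median, summing or leaving out symbols with several rows, removing the trend with gene length, and list means. The count of members higher in KO was 6 and ranged from 5 to 9 over these, and it was 2 with a threshold of 1.5-fold and 0 with 2-fold, beside 3.24% and 1.23% of all symbols. The share of all symbols called higher moved too. It was 9.84% beside 9 of 43 members with the scaled libraries, and 2.76% beside 8 of 46 with no filter. It was 4.51% beside 5 of 40 with a pseudocount of 5 FPKM, and 7.55% beside the 6 of 40 reported. Scaling raised all values, which in effect lowered the pseudocount and the filter. With it 11817 symbols passed instead of 10536, with Psma8, Psmb6 and Psmb8 among those added. No member was called lower under any of the alternatives. The share of all symbols called lower ranged from 0.475% with 2-fold to 7.35% with the scaled libraries, beside 4.3% in the main setting. Psmb10 ranged from 0.66 to 0.72, Psme1 from 0.48 to 0.52, Psme2 from 0.56 to 0.61, and the Psmb10 to Psmb7 ratio, on the log2 scale, from 0.44 to 0.47. The medians ranged from 0.12 to 0.18 for the 20S core, whose list mean was 0.19. The other medians ranged from 0.04 to 0.07 for the 19S ATPases, 0.05 to 0.07 for the 19S non-ATPases and 0.56 to 0.67 for the inducible genes. The 0.18 and 0.67 came from the scaled libraries, where 14 core and 4 inducible genes passed the filter, Psmb6 and Psmb8 among them. No paired analysis was possible because each genotype has 1 library and the labels give no replicate numbers. Without replicates, none of these ranges measures the spread between cultures, and the rows of Psmb6, Psmb8 and Psmb9 are too low for a comparison.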
